A study of Mus musculus with 8 samples.

Results

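The nuclear genes of oxidative phosphorylation were followed in single cells of the pubertal mouse mammary gland. They were taken by symbol: genes starting with Nduf, Uqcr or Atp5, with Cox4, Cox5, Cox6, Cox7 or Cox8, and Sdha to Sdhd and Cyc1. The rule found 89 of the 14883 genes in the deposited table. Of these, 78 encode subunits of the complexes themselves: 36 in complex I, 4 in complex II, 9 in complex III, 14 in complex IV and 15 in complex V. The other 11 lie beside them: the 7 complex I assembly factors named Ndufaf, Ndufa4 (now placed with complex IV), Cox7a2l (which helps complexes III and IV bind each other), and Atp5s and Atp5sl, which are not subunits of the ATP synthase. The subunits encoded by mitochondrial DNA could not be set beside them, because the table analysed here has 0 mitochondrial gene rows.

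Oxidative phosphorylation takes electrons from NADH (complex I) and succinate (complex II) through ubiquinone, complex III and cytochrome c to oxygen at complex IV. The protons pumped on the way drive ATP synthesis by complex V. Most subunits are made from nuclear genes and imported, and a small set comes from mitochondrial DNA. In the mammary duct, an inner luminal layer holds hormone-sensing cells, which carry receptors for ovarian hormones, and secretory-lineage cells, which give rise to milk-producing cells. An outer basal layer is contractile. Each of these cell classes needs ATP, and most of the genes followed here are active in nearly every cell type of the body.

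The cells came from ducts and terminal end buds, dissected from the fourth and the fifth mammary gland of mice aged 5 weeks, of a strain labelled only as mixed. They were sorted live, 1 cell per well, and read by SORT-seq, which counts tagged transcript molecules at their 3' ends. There were 2 plates of 4 libraries with 96 wells each, 768 wells in all. No genotype or treatment is given beyond this, and the labels do not say which wells held duct or end bud cells, nor how many animals gave a library. Wells with at least 1500 transcripts and 500 genes were kept, which left 114 cells. A cell was basal when Acta2, Tagln and Myl9 together exceeded Krt8, Krt18 and Krt19 together, and luminal in the reverse case. A luminal cell was hormone-sensing when Prlr exceeded Trf and secretory otherwise. This gave 66 basal cells, 42 luminal cells (14 hormone-sensing and 28 secretory) and 6 cells of neither class. None of the 8 genes of this rule is among the 89.

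Marker genes outside the rule bore on these names. A list of 8 further basal genes, Krt5 and Krt14 among them, held 15.3 to 50.1 transcripts per 10000 in the basal sums and 0.208 to 0.594 in the luminal sums, where Krt5, Krt14, Krt17 and Trp63 were at 0. Not every basal cell was basal by all its genes: 8 of 66 were led by markers of another cell type, 6 of them by endothelial markers. Of the 8 basal cells of plate 1 library 2, 5 were of this kind, as were 2 of the 7 of plate 1 library 4 and the 1 of plate 1 library 3. Among luminal cells, 1 of 42, a secretory cell of plate 1 library 1, was led by macrophage or dendritic markers. Other cells were high in both marker sums of the rule, with at least 10 transcripts of each. These were 5 of 66 basal cells, 2 in plate 2 library 2 and 3 in plate 2 library 4. They also included 1 of 42 luminal cells, a hormone-sensing cell of plate 2 library 1. The endothelial list (7 of 7 genes found) reached 37.1 transcripts per 10000 in the basal sum of plate 1 library 2 and at most 0.126 in any luminal sum. The summed totals per library ran from 101158 to 598625 transcripts over all wells. Basal cells came almost wholly from libraries 2 and 4 of each plate and luminal cells from libraries 1 and 3, so in any comparison of the layers the cell class cannot be told apart from the library.

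Levels are given as transcripts of a gene per 10000 transcripts of all genes, in the summed cells of a class in a library. Each molecule is counted once at its end, so the values need no scaling to gene length. Basal values are always listed with libraries 2 and 4 of plate 1 first and libraries 2 and 4 of plate 2 after them (8, 7, 31 and 18 cells). Luminal and secretory values are listed with libraries 1 and 3 of plate 1 first and libraries 1 and 3 of plate 2 after them (8, 12, 10 and 12 luminal cells, of which 7, 9, 3 and 9 were secretory). Hormone-sensing values omit plate 1 library 1, which had 1 such cell, and rest on 3, 7 and 3 cells. Nothing in the labels says that libraries came from separate animals, so the p-values below speak of variation from library to library only, part of which can be technical.

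By the median over all its genes, complex V stood highest of the 5 complexes. The median subunit gene of complex V stood at 3.39 transcripts per 10000 and that of complex IV at 3.07, against 1.92 in complex III, 1.29 in complex II and 1.27 in complex I. The complex IV median includes Cox4i2, Cox6b2, Cox7a1 and Cox8b, with 2, 10, 6 and 0 transcripts. The order of complexes IV and V depends on counting these low genes. The highest of all 89 was Atp5b, the catalytic beta subunit of the ATP synthase, at 9.21 per 10000, with Atp5g3 (a copy of the membrane ring subunit c) at 7.66 and Atp5a1 (the alpha subunit) at 7.05. Atp5b was found in 104 of the 114 cells. These genes thus sit well above the complex I genes, whose highest were Ndufa12 (2.36), Ndufa6 (2.32) and Ndufc2 (2.23). The 10 highest genes together held 32.6% of the 30352 transcripts of the 89.

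**Figure D1:**
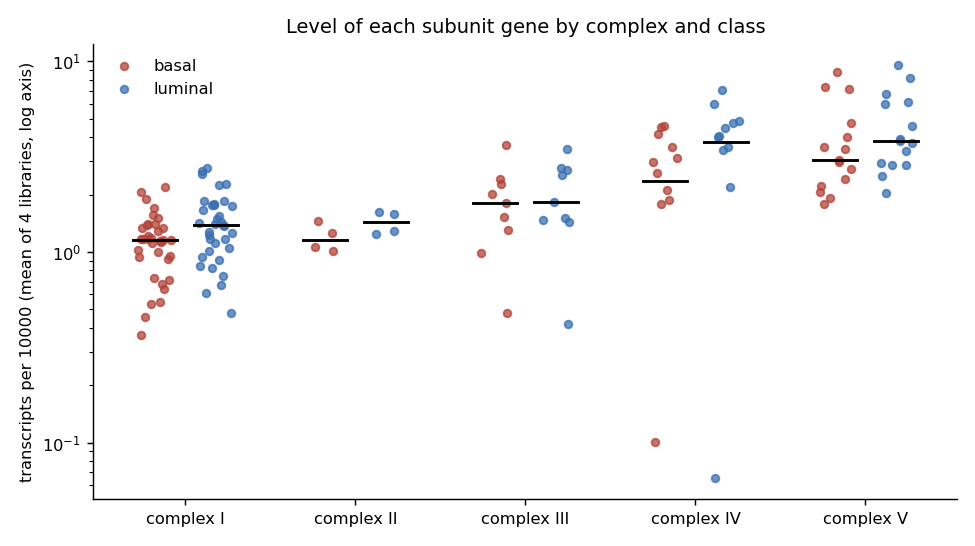
Level of each subunit gene in basal and luminal sums, by complex. Each point is 1 gene, as transcripts per 10000 on a log axis (mean of 4 library sums), bars are medians over the genes of the complex, and genes under 0.05 in a class are not drawn. The medians of complexes IV and V lie above those of complex I in both classes.

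In complex II, Sdhc (a membrane anchor) stood at 1.53 per 10000, Sdha (the flavoprotein) at 1.30 and Sdhb (the iron-sulfur protein) at 1.27, so the subunits of this complex lay close together. In complex III the highest were Uqcrh (3.57), Uqcrb (2.59) and Uqcrc2 (2.40). Its core protein gene Uqcrc1 had 46 transcripts in all cells. Its level was 1.71 per 10000 (12 transcripts) in the basal sum of plate 1 library 2. It was 0 to 0.14 in the other basal sums and 0.21 to 0.89 in the luminal sums. Endothelial markers were also highest in that basal sum of plate 1 library 2, and a link with Uqcrc1 was not tested. In complex IV, Cox8a stood at 5.81, Cox6c at 4.52 and Cox6a1 at 4.48.

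Several subunits of complex IV exist as pairs of genes, 1 used widely and 1 known from heart, skeletal muscle, lung or testis. In these cells the widely used copy held nearly all transcripts of each pair. Cox4i1 had 660 transcripts and Cox4i2, known from lung, had 2. Cox6b1 had 541 and Cox6b2, known from testis, had 10. Cox7a2 had 441 and Cox7a1, the heart and muscle form, had 6. Cox8a had 918 and Cox8b, also a heart and muscle form, had 0. Cox5a (459) and Cox5b (347) encode different subunits and were both present, as were Cox7b (680), Cox7c (662) and the supercomplex factor Cox7a2l (395). The 3 genes for subunit c of complex V encode the same mature protein, and all 3 were expressed: Atp5g3 with 1376 transcripts, Atp5g2 with 808 and Atp5g1 with 420. Outside complex IV the lowest gene was Ndufs5, with 1 transcript. The next lowest complex I subunit gene, Ndufv1, had 98. Why the count of Ndufs5 was so low was not tested.

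In pooled cells, the summed share of the 89 genes was nearly the same in all basal libraries and differed among the luminal ones. Basal sums held 158.9, 157.6, 159.0 and 159.2 transcripts of these genes per 10000. Luminal sums held 209.9, 183.8, 225.0 and 166.7. All 4 luminal sums lay above all 4 basal sums, with means of 196 ± 26.1 (SD, n = 4) and 158.7 ± 0.738 (SD, n = 4), a ratio of 1.24. This is a description of a list, and no test was made of it. The share was also higher in deeper cells, as given further on. Among cells of 4000 to 20000 transcripts its median was 131.5 in 28 basal and 134.6 in 28 luminal cells, with pooled shares of 138.7 and 157.6. The part of depth in the difference between the layers was not tested. The closeness of the basal sums holds for the pooled cells only, since single basal cells ranged from 42.1 to 299.1 per 10000. In the same order of libraries, the median basal cell stood at 101.3, 131.8, 141.1 and 126.6. The deepest cell gave 42.4%, 52.9%, 7.96% and 14.8% of the transcripts of these basal sums. That of plate 1 library 2 had a share of 236.5 per 10000.

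Within each of the 3 libraries with at least 3 cells of both luminal classes, the hormone-sensing sum was above the secretory one. The hormone-sensing sums were at 219.2, 232.5 and 192.3 per 10000, while the secretory sums were at 214.4, 133.5, 137.3 and 149.1. The ratios within a library were 1.64, 1.69 and 1.29, while across libraries the classes overlapped, since plate 1 library 1 had a secretory value above the lowest hormone-sensing one. At 4000 to 20000 transcripts per cell the log2 difference averaged over libraries was near 0, but in each library 1 of the classes rested on 1 cell. Pooled over the cells of that depth, the shares were 218.9 in hormone-sensing and 138.1 in secretory cells. Both are given by library further on. Except in plate 1 library 1, the secretory values lay below every basal value. That library had its secretory value set largely by 1 cell, which gave 48.2% of the transcripts and had a share of 273.9 per 10000. The sums behind the ratios also leaned on single cells. Their deepest cell gave 54.0%, 31.2% and 58.1% of the hormone-sensing transcripts. In the secretory sums of the same libraries it gave 24.8%, 55.0% and 34.6%.

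**Figure D2:**
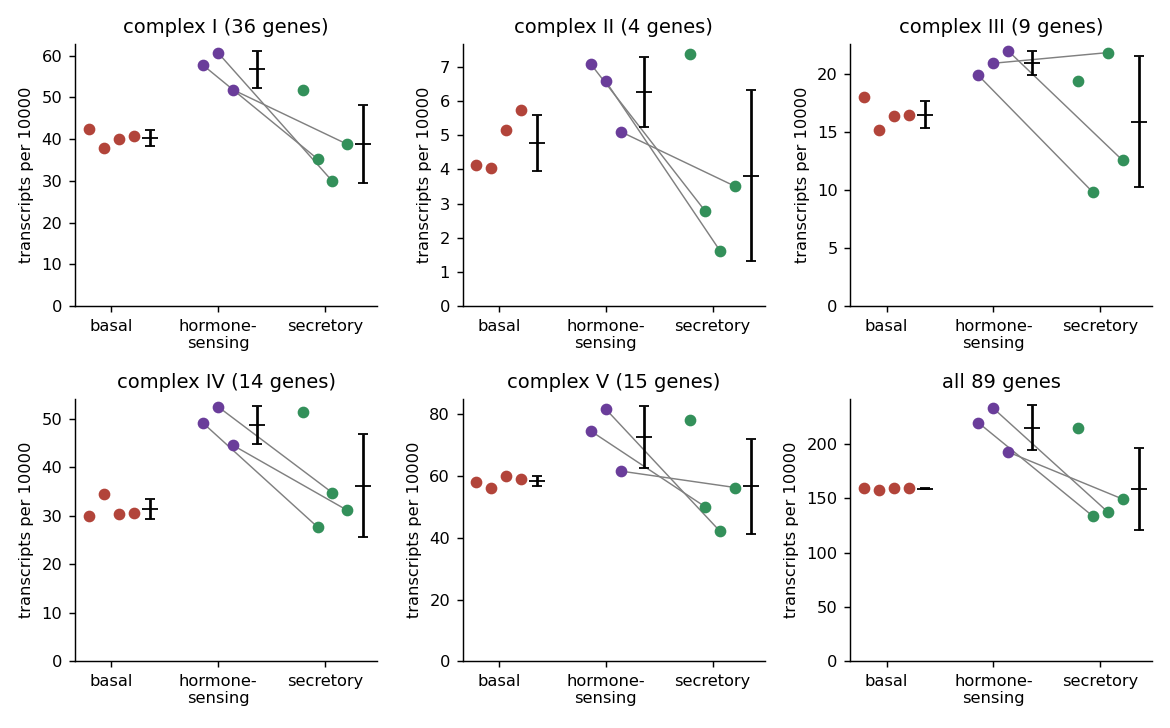
Summed level of the subunit genes of each complex, and of all 89 genes, in transcripts per 10000. Points are library sums of basal, hormone-sensing and secretory cells, grey lines join the sums of 1 library, and black bars give mean ± SD. The 4 basal points of all 89 genes lie at 157.6 to 159.2, and all hormone-sensing points lie above them.

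By complex, the luminal to basal ratio was 1.42 for complex IV, 1.25 for complex I, 1.203 for complex II, 1.19 for complex V and 1.10 for complex III. Complex IV stood at 29.98, 34.5, 30.5 and 30.5 per 10000 in the basal sums and at 50.01, 40.3, 51.1 and 36.6 in the luminal sums, with no overlap. Complex I did not overlap either, while complexes II, III and V did: complex III stood at 15.2 to 17.99 in the basal sums and 15.7 to 21.0 in the luminal sums. Complex IV thus took 19.8% ± 1.41 of the transcripts of the 89 genes in basal cells and 22.6% ± 0.897 in luminal cells (SD, n = 4 each), and complex V took 36.7% ± 0.914 and 35.3% ± 0.639.

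Single genes were compared between basal and luminal sums with edgeR's quasi-likelihood test over 3420 genes, with Benjamini-Hochberg adjustment and a threshold of 0.05. Of all genes tested, 14.8% passed, 6.7% as lower and 8.07% as higher in basal cells. Of the 89, 74 had enough counts to be tested, and 3 passed as lower in basal cells, Ndufa7, Cox6a1 and Ndufv3, while 0 passed as higher. The share of members that passed is below the background share, so these calls are no result about the list. Their direction was shared more widely: 57 of 74 estimates were below 0, with a median log2 difference (basal minus luminal) of -0.29, against -0.00012 over all genes tested. An unadjusted p under 0.05 was reached by 13 members (17.6%), all lower in basal cells. Of all 3420 genes tested, 25.6% reached it in either direction, and 409 did so as lower in basal cells.

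Cox6a1 encodes the widely used form of subunit VIa, which sits at the interface of the complex IV dimer. Its level was 2.43, 2.61, 3.17 and 3.61 per 10000 in basal sums and 7.03, 6.78, 5.94 and 4.26 in luminal sums. Every luminal value lay above every basal value, and plate 2 library 3 was the lowest of the luminal libraries. The log2 difference was -0.999 ± 0.258 (SE), with an edgeR adjusted p of 0.0181. Both luminal classes were above basal cells, with 8.57, 6.03 and 4.21 in hormone-sensing and 7.47, 4.24, 4.85 and 4.30 in secretory sums.

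Ndufa7 encodes an accessory subunit of the complex I arm that takes up NADH. Its level was 1.14, 1.35, 1.28 and 0.881 per 10000 in basal sums and 1.68, 2.46, 3.54 and 2.60 in luminal sums. The groups did not overlap. The log2 difference was -1.16 ± 0.30 (SE), with an edgeR adjusted p of 0.0175. The luminal classes differed in their values: 3.07, 3.70 and 4.21 in hormone-sensing sums and 1.68, 1.59, 1.62 and 1.49 in secretory sums, all secretory values lying between the basal and the hormone-sensing ones. Within libraries that luminal difference was 1.05 ± 0.61 on the log2 scale (SE, n = 3 pairs, edgeR adjusted p = 0.325).

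Ndufv3 encodes a small subunit bound to the flavoprotein module of complex I, where NADH is oxidised. It was a low gene: 0.571, 0.193, 0.426 and 0.284 per 10000 in basal sums and 0.990, 0.766, 1.33 and 0.676 in luminal sums. The luminal values were again all higher, but the counts behind them were small, with 2 to 25 transcripts in a basal sum. The log2 difference was -1.36 ± 0.40 (SE), with an edgeR adjusted p of 0.0381. In the secretory sums it spread from 0.265 to 1.62 per 10000, the highest value resting on 2 transcripts.

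These calls depended on single libraries. Without plate 2 library 4, Ndufa7 had an adjusted p of 0.0786 in edgeR. Cox6a1 had 0.0675 without plate 1 library 4 and 0.0611 without plate 2 library 2. Ndufv3 was lost in edgeR without plate 1 library 3 (adjusted p = 0.0518), plate 1 library 4 (0.102), plate 2 library 1 (0.104), plate 2 library 2 (0.0847) or plate 2 library 4 (0.143). On plate 1 alone 0 members passed (2 had an unadjusted p under 0.05) and on plate 2 alone 1 did, Ndufa7. With the library as a block, where only 2 libraries with 1 basal cell each inform the contrast, 0 of 63 passed in edgeR, and 0 had an unadjusted p under 0.05. Of these basal cells, that of plate 1 library 3 was led by markers of another cell type. Without the cells led by markers of other types 5 passed, Ndufa13 and Ndufa3 being added. That fit drops plate 1 library 2, which then has too few cells, and gives the same 5 genes as leaving that library out. Over all alternatives fitted, adjusted p ran from 0.00117 to 0.838 for Ndufa7 (under 0.05 in 20 of 24), from 0.00474 to 0.753 for Cox6a1 (16 of 24) and from 0.0163 to 0.848 for Ndufv3 (14 of 22). These counts include the fit with at least 3 cells per sum, which used the same sums as the main fit. DESeq2 called 5 members, adding Atp5g2 and Cox5a (adjusted p = 0.0377 for each).

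**Figure D3:**
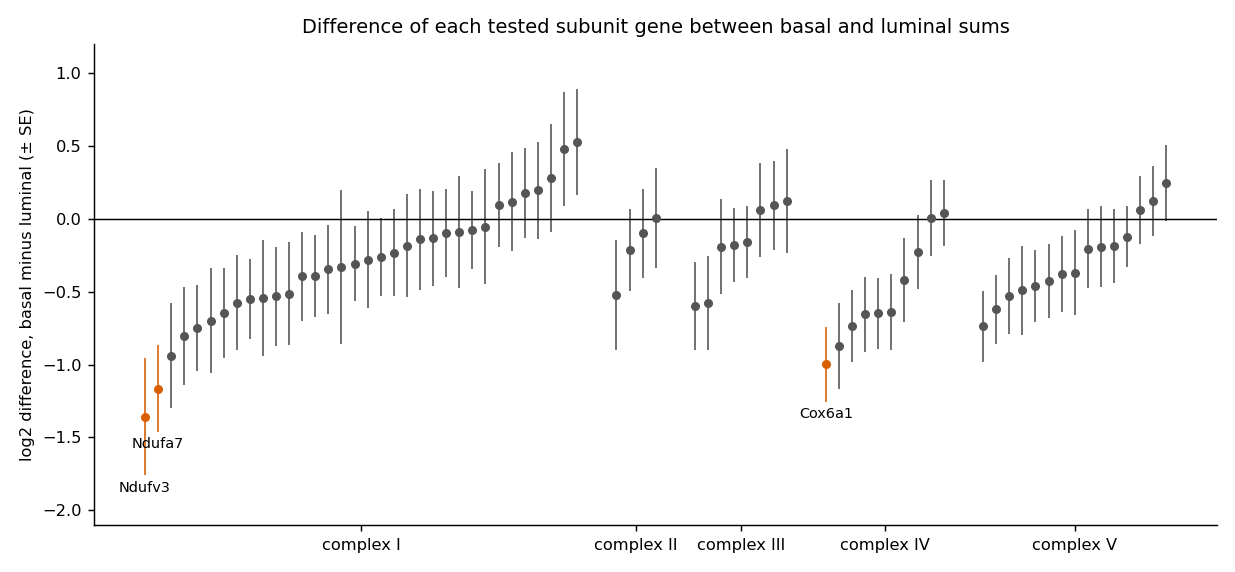
Log2 difference (basal minus luminal) of each tested subunit gene, ordered by value within its complex. Points are edgeR estimates from 4 basal and 4 luminal sums, lines are ± SE, and orange marks the 3 genes with adjusted p under 0.05. Most points lie below 0, and none of those above 0 passed.

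The promoters of the called genes are shown because they let a reader see whether the genes share known control sequences. Each runs from 250 bases before to 50 bases after the transcript start given by RefSeq (build GRCm38.p6, the assembly also named mm10), written 5' to 3' on the gene's strand. Capitals mark matches to 4 motifs named for regulators of mitochondrial genes, searched on both strands: NRF1 (GCGCATGC), the ETS family that includes GABP (CCGGAAGT), YY1 (AAGATGGC) and the estrogen-related receptors (TCAAGGTCA). Cox6a1 lies at chr5:115348909-115349208 (minus strand), Ndufa7 at chr17:33824322-33824621 (plus strand, the first of 2 starts) and Ndufv3 at chr17:31519865-31520164 (plus strand). Ndufs4, called between the luminal classes and described further on, lies at chr13:114388045-114388344 (minus strand).
Cox6a1: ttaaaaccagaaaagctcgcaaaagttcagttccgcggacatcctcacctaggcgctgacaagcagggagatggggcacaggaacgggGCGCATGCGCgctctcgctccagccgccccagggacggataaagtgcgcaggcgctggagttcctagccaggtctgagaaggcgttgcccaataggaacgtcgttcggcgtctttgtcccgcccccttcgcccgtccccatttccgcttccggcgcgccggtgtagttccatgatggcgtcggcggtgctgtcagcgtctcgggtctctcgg
Ndufa7: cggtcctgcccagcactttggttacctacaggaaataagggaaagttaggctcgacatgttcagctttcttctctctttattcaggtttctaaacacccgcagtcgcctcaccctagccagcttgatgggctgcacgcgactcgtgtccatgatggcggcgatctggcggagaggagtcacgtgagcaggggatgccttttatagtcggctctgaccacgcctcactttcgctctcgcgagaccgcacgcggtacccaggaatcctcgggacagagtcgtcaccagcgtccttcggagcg
Ndufv3: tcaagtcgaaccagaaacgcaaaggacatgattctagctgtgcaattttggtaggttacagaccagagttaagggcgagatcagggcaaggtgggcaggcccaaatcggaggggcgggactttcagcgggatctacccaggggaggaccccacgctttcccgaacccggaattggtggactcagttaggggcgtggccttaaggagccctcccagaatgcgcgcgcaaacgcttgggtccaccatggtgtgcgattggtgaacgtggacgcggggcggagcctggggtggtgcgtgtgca
Ndufs4: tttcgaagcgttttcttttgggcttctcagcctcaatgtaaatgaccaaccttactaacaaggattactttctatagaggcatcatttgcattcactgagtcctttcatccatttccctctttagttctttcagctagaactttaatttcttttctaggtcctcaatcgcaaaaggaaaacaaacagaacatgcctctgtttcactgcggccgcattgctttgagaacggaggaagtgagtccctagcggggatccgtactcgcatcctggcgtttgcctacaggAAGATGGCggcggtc
Cox6a1 holds 1 stretch that matches NRF1 on both strands, its matches starting at -162 and -160. Ndufs4 holds a YY1 match that starts at position 36 after the transcript start, and the letters of neither Ndufa7 promoter nor of Ndufv3 match any of the 4 motifs. The called genes thus share no motif of this search.

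Over the whole family such matches were more frequent than among promoters at large. The table gave 81 promoters for 75 of the 89 genes. NRF1 was matched in 14.8% of them against 2.71% of all 32851 promoters, YY1 in 14.8% against 2.75%, ETS in 6.17% against 3.89% and the estrogen-related receptor motif in 2.47% against 0.423%. Any of the 4 was found in 37.0% against 9.25%. YY1 matches lay after the transcript start in 9 of 12 promoters of the family, against 41.3% of all promoters with a match. These 12 promoters belong to 11 genes, because 2 overlapping promoters of Atp5sl hold the same site, at position 27 and at -53. For 66 of the 75 genes the promoter ran into the start of an annotated transcript in the same direction. Member promoters were also richer in G and C, with a median of 58.3% against 52.7%. A match describes letters only and says nothing about binding in these cells.

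Most genes of complex IV had estimates on the lower side in basal cells. Of its 10 tested genes, 8 had estimates below 0 and 6 had an unadjusted p under 0.05, with a median log2 difference of -0.64. Over all genes tested, 50% had estimates below 0 and 25.6% an unadjusted p under 0.05 in either direction, 409 of 3420 as lower in basal cells. Only Cox6a1 passed the adjusted test, 1 of 10, against 14.8% of all genes in either direction and 6.7% as lower in basal cells. The other 5 were Cox5a, Cox7a2, Cox6b1, Cox8a and Cox7c. Cox5a, a subunit on the matrix side, stood at 1.86, 2.41, 1.93 and 2.30 per 10000 in basal sums and 3.37, 3.50, 4.36 and 2.96 in luminal sums, without overlap (log2 difference -0.74 ± 0.25, edgeR adjusted p = 0.0632). Cox8a, the highest gene of the complex, stood at 4.57, 5.21, 4.19 and 4.12 in basal sums and at 8.91, 4.87, 8.65 and 5.98 in luminal sums, which overlap in 1 library (log2 difference -0.65 ± 0.26, edgeR adjusted p = 0.118). Cox6c and Cox4i1, in contrast, had estimates of 0.04 and 0.00. That contrast within the complex was not tested.

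The highest genes of the other complexes did not pass. Atp5b differed by -0.12 ± 0.21 (SE), Uqcrh by 0.09 ± 0.30 and Sdhc by -0.10 ± 0.31 on the log2 scale, and Ndufa12 by -0.39 ± 0.28, with edgeR adjusted p of 0.777, 0.896, 0.888 and 0.429. Complex V had a median of -0.37, complex I of -0.29, complex III of -0.17 and complex II of -0.16. The largest positive estimate of the 74 was Ndufa11, at 0.53 with an edgeR adjusted p of 0.411. All basal sums lay below all luminal sums for 12 of the 74 genes (16.2%), against 8.74% of all genes tested, and above them for 0 of 74, against 10.4%. These 12 were the 3 called genes and Atp5g2, Cox5a, Cox6b1, Atp5c1, Atp5g1, Ndufb10, Atp5j2, Atp5l and Ndufb9.

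The luminal classes were also set against basal cells one at a time. With hormone-sensing cells alone, 6 members passed as lower in basal cells: Ndufs4, Ndufa7, Ndufc1, Ndufv3, Cox5a and Cox6a1. The background there was 24.5% of 2575 genes in either direction, and 11% as lower in basal cells. With secretory cells alone, 0 of 63 members passed in edgeR and 1 had an unadjusted p under 0.05 (Cox6a1, log2 difference -0.85 ± 0.33), against 16.3% of 1851 genes that passed, 7.08% as lower in basal cells. The median over members was -0.35 in the first case and -0.069 in the second. Both settings were added after the data were seen and share the basal sums.

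**Figure D4:**
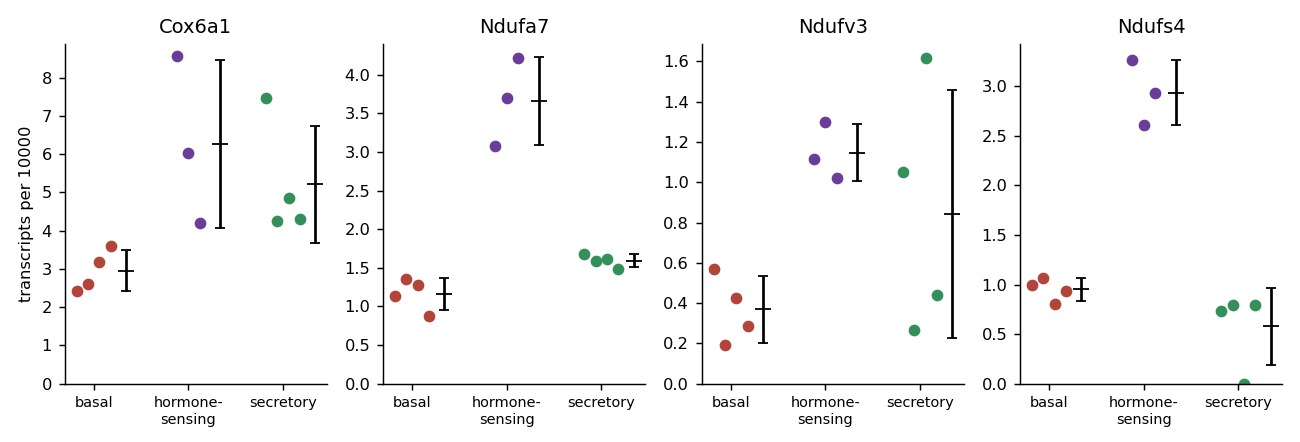
Levels of the 4 genes past the threshold in either comparison, in transcripts per 10000. Points are library sums of basal, hormone-sensing and secretory cells, and bars give mean ± SD (n = 4, 3 and 4). All hormone-sensing points of Ndufa7 and Ndufs4 lie above all points of the other classes.

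Hormone-sensing and secretory cells were compared directly within the 3 libraries that held at least 3 cells of both, with the library as a block. Of 2458 genes tested by edgeR, 12.1% passed, 5.17% as higher and 6.92% as lower in hormone-sensing cells. Of 69 members tested, 1 passed, Ndufs4, which is below the background share. Estimates were above 0 for 63 of 69 members (91.3%), against 56.1% of all genes tested, with a median log2 difference (hormone-sensing minus secretory) of 0.43, against 0.11 over all genes tested. The level was higher in the hormone-sensing sum of all 3 libraries for 37 members (53.6%), against 31.8% of all genes tested. An unadjusted p under 0.05 was reached by 5 (7.25%), all higher in hormone-sensing cells: Ndufs4, Sdhb, Uqcrq, Atp5k and Ndufc1. Of all 2458 genes tested, 21.8% reached it in either direction, and 249 did so as higher in hormone-sensing cells.

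Ndufs4 encodes a subunit of complex I that is needed late in its assembly, and its loss is a known cause of Leigh syndrome. Its level was 3.26, 2.60 and 2.93 per 10000 in hormone-sensing sums (35, 38 and 23 transcripts). In the secretory sums of the same libraries it was 0.795, 0 and 0.789, from 6, 0 and 9 transcripts. The sum at 0 held 12378 transcripts, so a count of 0 allows up to 2.42 per 10000, and that limit covers counting error only. All hormone-sensing values lay above the secretory values. Basal cells, at 0.999, 1.06, 0.801 and 0.938, were near the secretory level, and the secretory sum of plate 1 library 1, outside this fit, was at 0.737. The log2 difference between the luminal classes was 1.91 ± 0.67 (SE), with an edgeR adjusted p of 0.0377. The call was lost without any 1 of the 3 libraries: the edgeR adjusted p was 0.384 without plate 1 library 3, 0.111 without plate 2 library 1 and 0.166 without plate 2 library 3. In DESeq2 it was 0.0982, and 0 members passed. Over the alternatives it ran from 0.00853 to 0.384, under 0.05 in 5 of 12. That count includes the fit without cells led by other cell types, which used the same sums as the main fit.

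Sdhb had the largest estimate of the 69, at 2.26 ± 0.89 (SE, edgeR adjusted p = 0.0811), from 2.42, 1.92 and 0.893 per 10000 in hormone-sensing sums and 0.133, 0 and 0.438 in secretory sums. With 1, 0 and 5 secretory transcripts behind it, this value is poorly fixed. Of the genes highest in each complex, Sdhc differed by 1.45 ± 0.75 (SE), Cox8a by 0.66 ± 0.52, Atp5b by 0.48 ± 0.50 and Uqcrh by 0.33 ± 0.56, while Ndufa6 differed by -0.37 ± 0.58, and none passed in edgeR (adjusted p from 0.235 to 0.837). The medians were 0.81 in complex II, 0.73 in complex III, 0.58 in complex IV, 0.54 in complex I and 0.42 in complex V.

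Depth moved with this comparison. Hormone-sensing cells had a median of 17924 transcripts, secretory cells 7102.5 and basal cells 13450.5. The share of the 89 genes was itself higher in deeper cells, with a Spearman correlation over cells of 0.52 in basal cells, 0.36 in secretory cells and 0.19 in hormone-sensing cells, which share library and depth within each sum. The median share per cell was 223.6 per 10000 in hormone-sensing, 133.7 in secretory and 135.7 in basal cells. Cells of 4000 to 20000 transcripts gave pooled shares of 218.9 in 7 hormone-sensing and 138.1 in 21 secretory cells. By library, however, this held in plate 2 library 1 (264.0 from 4 cells against 146.9 from 1 cell) and not in the others. There, single hormone-sensing cells stood at 139.1, 80.8 and 130.2, against 158.5, 132.9 and 129.5 for the secretory cells. Averaged over these 4 libraries, with at least 1 cell of both classes, the log2 difference of the summed share was -0.013 at this depth and 0.30 without the depth limit. Over the 3 libraries with at least 3 cells of both it was 0.61 without the limit. The part of depth in the result was not tested beyond this.

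**Figure D5:**
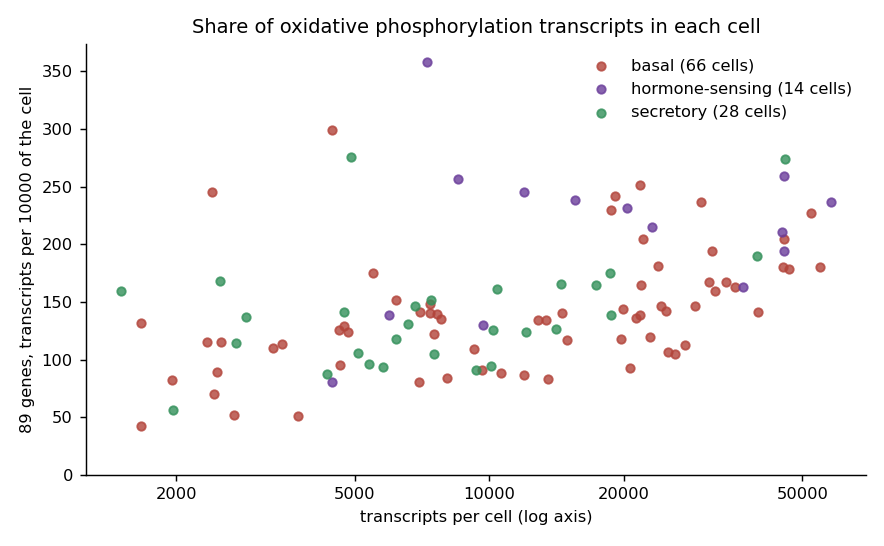
Share of the 89 genes in each classified cell (transcripts per 10000 of the cell) against the cell's transcripts, on a log axis. Each point is 1 cell: 66 basal, 14 hormone-sensing and 28 secretory. Deeper basal and secretory cells tend to lie higher, and hormone-sensing cells above 200 per 10000 are found from 7262 to 57903 transcripts.

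Thinned to 1500 transcripts each, hormone-sensing cells showed a median of 26 of the 89 genes, secretory cells 15.5 and basal cells 16. Before thinning these were 72.5, 40.5 and 56. The median number of member transcripts in a thinned cell was 34, 22 and 19 in the same order. Of the hormone-sensing cells, 7 came from plate 2 library 1, so these medians weigh that library most.

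No member passed between the plates. Comparing all classified cells of the 4 libraries of each plate with edgeR, 0 of 75 members passed, as did 0 of 3649 genes (a background of 0%), and DESeq2 also called 0. The members' median log2 difference (plate 2 minus plate 1) was -0.041, and the summed share differed by -0.0018. Only 1 member had an unadjusted p under 0.05, the complex I assembly factor Ndufaf7, with 1.38 ± 0.323 per 10000 on plate 2 against 2.25 ± 0.747 on plate 1 (mean ± SD of 4 libraries). The difference between basal and luminal cells did not pass as differing between plates for any of 76 members (edgeR interaction term, 0 of 5031 genes, 0%), and 0 members had an unadjusted p under 0.05. For Cox6a1 the interaction was 0.91 ± 0.52 (SE), for Ndufa7 -0.70 ± 0.62 and for Ndufv3 -0.12 ± 0.96, so differences of this size between plates were not detectable here.

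Other genes of the pathway were taken from lists of 31 assembly factors in the table, 19 carriers and partners, 17 citrate cycle genes, 11 regulators and 76 genes of the mitochondrial ribosome. Between basal and luminal cells, 5 of them passed in edgeR: 1 of 7 tested assembly factors, 2 of 17 carriers and partners, 0 of 16 citrate cycle genes, 0 of 4 regulators and 2 of 27 ribosome genes. In all genes tested the share was 14.8%, so the count over these lists is no result about them, and the genes are given as single values. The 1 that was higher in basal cells was Slc25a4, which exchanges ADP for ATP across the inner membrane and is the form known from heart and muscle. It stood at 4.14, 5.12, 5.62 and 5.51 per 10000 in basal sums and at 2.28, 0.930, 1.58 and 1.195 in luminal sums, without overlap (log2 difference 1.81 ± 0.30, edgeR adjusted p = 0.000997). The more widely used carrier Slc25a5 differed by 0.36 ± 0.30 (edgeR adjusted p = 0.516).

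Chchd10, a small protein of the space between the mitochondrial membranes, was lower in basal cells, at 0.428, 0, 0.0170 and 0.0853 per 10000 against 2.77, 0.875, 0.947 and 0.987 in luminal sums. The groups did not overlap, and its edgeR adjusted p was 0.00213. Cox17, which delivers copper to complex IV, was also lower (log2 difference -1.47 ± 0.43, edgeR adjusted p = 0.0337), though plate 1 library 2, at 1.71, overlapped with luminal values of 1.59 to 2.59. The mitochondrial ribosome genes Mrpl14 (-1.46 ± 0.29) and Mrpl43 (-1.68 ± 0.41) were lower as well, with edgeR adjusted p of 0.00322 and 0.0137. Between hormone-sensing and secretory cells, 0 of the tested genes of these lists passed in edgeR, and 1 assembly factor, 1 citrate cycle gene and 1 ribosome gene had an unadjusted p under 0.05. All 14 tested carriers and partners had estimates above 0, against 56.1% of all genes tested, with a median log2 difference of 0.43 against 0.11 over all genes.

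Not every member could be tested. Between basal and luminal cells 15 were too low: the 6 assembly factors Ndufaf1 to Ndufaf6, Atp5s, Atp5sl, Ndufs5, Ndufv1, Uqcrc1, and the complex IV genes Cox4i2, Cox6b2, Cox7a1 and Cox8b. Between the luminal classes 20 were, the others being Ndufa5, Ndufb7, Ndufb10, Ndufs7 and Ndufs8. For the plate test 14 and for the interaction 13 were left out. By genome position the family is scattered over 19 chromosomes, with at most 9 genes on 1 of them and 3 on the X chromosome, Cox7b, Ndufa1 and Ndufb11. In mm10, as annotated by GENCODE M21, Cox6a1 spans 115345642 to 115348981 on chromosome 5, Ndufa7 spans 33824572 to 33838317 and Ndufv3 spans 31520115 to 31531331 on chromosome 17, and Ndufs4 spans 114287795 to 114388258 on chromosome 13. All 4 are annotated as protein coding.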

How the data were processed

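Wells were processed by SORT-seq, a plate form of CEL-seq2, and read as 75 bp pairs, per the labels' protocols. The submitters' processing notes name BWA 0.6.2-r126 and mm10. The deposited table holds expected counts, estimated by the authors as molecules per gene and well: 533073 of 533078 values above 0 fit the correction for collisions among 256 tags of 4 bases (tolerance 1e-06). What else the authors did is not stated in these sources. Each well is listed under 1 library.

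Counts were rounded, spike-ins left out, and cells summed per library and class (at least 5 cells per sum; 3 for the luminal classes). Sums went into the quasi-likelihood test of edgeR 4.0.16 in R 4.3.3, after filterByExpr and TMM scaling, with Benjamini-Hochberg adjustment over all genes tested. Alternatives were DESeq2 1.42.0, scaling, filters, libraries, plates, blocks, cell filters and thinning. Standard errors were taken as the log2 difference divided by the square root of F. The tests were tried on simulated data. Sums held 12378 to 586868 transcripts. Members and lists were chosen with earlier results of these data known. Named were members past the threshold, the highest gene of each complex, the 3 highest by level, the paralogue sets, and listed pathway genes that passed; other genes were named after their values were seen. Plates share library numbers: over 3776 genes, deviations of same-numbered libraries correlated at 0.287, 0.363, 0.478 and 0.554, all above 0.1, but libraries 1 and 3, and 2 and 4, also correlated across numbers (0.357 to 0.593), as their classes do. Versions of other tools were Python 3.11.15, numpy 2.4.6, pandas 2.3.3 and matplotlib 3.10.9.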

Additional observations from a re-analysis of the deposited data

Results flagged for a closer look

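Of 30 groups of 4 libraries looked at, 2 had a library far from the other three by Dixon's criterion at the 95% level. Chance passes it in about 1 of 20 groups of like libraries. Both groups set apart were plates, which join mostly luminal libraries (1 and 3) with mostly basal ones (2 and 4), so that rate does not hold for them. Cox8a was at 8.91 transcripts per 10000 in plate 1 library 1, against 4.57, 5.09 and 5.21 in the other libraries of plate 1 (all classified cells summed). The summed share of all 89 genes was 225.3 per 10000 in plate 2 library 1, against 159.0, 159.2 and 166.7 in the other libraries of plate 2. Plate 2 library 1 also held 7 of the 14 hormone-sensing cells. Among the 4 luminal sums, Cox8a stood at 8.91, 4.87, 8.65 and 5.98 and the summed share at 209.9, 183.8, 225.0 and 166.7. No group of 1 class was set apart.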

How the results depend on the processing

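Cell number and depth both limit these results: luminal sums rest on 8 to 12 cells, single cells hold up to 58.1% of a sum's transcripts, and low genes have few molecules. Class cannot be told apart from library for basal against luminal cells, nor from depth between the luminal classes. Where a value changed, the cause was not tested unless the setting itself leaves fewer genes or samples.

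Basal against luminal, 3 members past the threshold: 5 with DESeq2 and without cells led by other types, 1 with no filter and on plate 2 alone, 0 on plate 1 alone and with thinned cells (3 members tested), 6 for hormone-sensing and 0 for secretory cells alone, and 1 to 5 leaving out a library. All genes past it (505): 1511 with no filter, 939 on plate 2, 163 on plate 1, 835 without cells led by other types, 40 thinned, 302 for secretory cells, and 436 to 848 leaving out a library (761 without plate 1 library 1, 848 without plate 1 library 2). The members' median (-0.29) was 0.25 thinned, -0.47 with at least 1 cell per sum (all genes -0.19) and -0.069 for secretory cells. The summed share (-0.30) was 0.028 for secretory cells.

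The replicate block on library gave 0 members, 34 genes, a median of -1.11 (all genes -1.05), a summed share of -0.16 and Uqcrh -0.79. The block on library number between plates gave 2 genes, Sdhc 0.011 and Atp5b 0.033, and it changed no member's call. The luminal classes without the block gave 1 member, Ndufs4, as with it.

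Genes that turned sign had no call. Sdhc, basal against luminal (-0.10), was 0.23 on plate 2, 0.046 without cells led by other types, 0.41 for secretory cells and -0.26 to 0.084 leaving out a library. Uqcrh (0.09) was -0.29 on plate 1, -0.032 without cells high in both marker sums, -0.12 with at least 1 cell per sum, -0.25 for hormone-sensing cells and -0.091 to 0.25 leaving out a library. Atp5b (-0.12) was 0.43 thinned, 0.10 for secretory cells and 0.061 without cells led by other types at 3 cells per sum.

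Hormone-sensing against secretory, 1 member: 2 with library totals only (Sdhb added) and 0 with DESeq2, no filter, at least 5 cells per sum, at least 1 cell of both, cells of 4000 to 20000 transcripts, or leaving out any library (0 to 0). All genes (297): 186 at 5 cells, 50 thinned (no member tested, so no member value), 66 at 4000 to 20000 transcripts, and 11 to 140 leaving out a library. The median (0.43, all genes 0.11) was 0.57 with DESeq2 (all genes 0.22), 0.67 with totals only (0.35), 0.65 with no filter (0.29), 0.18 at 1 cell, -0.067 at 4000 to 20000 transcripts (-0.11) and 0.29 to 0.80 leaving out a library. The summed share (0.61) was 0.30 at 1 cell, -0.013 at 4000 to 20000 transcripts and 0.54 to 0.74 leaving out a library. Ndufa6 was 0.37 at 5 cells, Atp5b -0.043 at 1 cell, and at 4000 to 20000 transcripts Uqcrh was -0.74 and Atp5b -0.66.

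Plate 2 against plate 1: the median was 0.39 thinned (4 members). Sdhc was 0.055 with no filter, 0.33 in basal cells and -0.22 to 0.20 leaving out a library. Atp5b was 0.10 with no filter, 0.016 in basal cells, 0.63 thinned and -0.11 to 0.090 leaving out a library. Cox8a was 0.021 with no filter, 0.029 in luminal cells and -0.34 to 0.21 leaving out a library. For the interaction, no filter gave 23 genes and 0.16 for Ndufa12, and totals only gave -0.028 for Atp5b.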
